A study of Mus musculus with 12 samples.

Results

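Transcripts of the mitochondrial genome were followed in mouse cerebral cortex at 2 hr after CCI (controlled cortical impact), an experimental head trauma made by driving a rigid tip into the opened skull. The members were all genes whose symbol starts with mt-, which gave 37 genes of the 55487 in the tables: 13 protein-coding genes, 2 ribosomal RNAs and 22 transfer RNAs. All animals had CCI, and bulk RNA sequencing was done on cortex from the struck side (ipsilateral) and from the opposite side (contralateral), with 3 libraries in each of 4 groups. The groups were cKO ipsilateral and cKO contralateral, of genotype CX3CR1cre-er/+ STING fl/fl, and cre wt ipsilateral and cre wt contralateral, of genotype CX3CR1cre-er/+. Both genotypes thus carried the Cx3cr1 allele with the tamoxifen-dependent recombinase, which acts in microglia and other Cx3cr1-expressing myeloid cells, and the cKO animals also carried floxed STING, so other cortical cells kept an intact STING gene. The study's design text writes the cKO recombinase as CX3CR1cre, whereas its sample labels write CX3CR1cre-er. Age and any tamoxifen treatment are not given in the sources used here, no group without impact was analysed, and the labels leave unsaid whether each library is a different animal; p-values here measure only library-to-library spread.

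The mitochondrial genome is a small circle present in many copies per cell. It encodes subunits of respiratory chain complexes I, III and IV and of ATP synthase (complex V), together with the ribosomal and transfer RNAs that translate them; all other subunits, and all of complex II, come from the nucleus. Both strands are transcribed as long precursors, and most messenger RNAs are freed when the transfer RNAs between them are cut out. Most of the messengers receive short poly(A) tails, which lets a poly(A)-selecting library kit capture them. How fully the kit captured each messenger was not tested. Neurons, which depend heavily on oxidative phosphorylation, hold mitochondrial messengers at high levels.

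Library totals ran from 7958931 counts in cKO ipsilateral library 3 to 33567194 in cKO contralateral library 1, and the other 10 libraries held 20779210 to 28295376. Tmem173, the gene symbol of STING, had 1.05, 2.44 and 1.24 CPM (counts scaled to library size) in cKO ipsilateral cortex and 0.997, 1.96 and 0.762 CPM in cKO contralateral cortex, against 2.34, 3.69 and 2.72 CPM in cre wt ipsilateral and 2.49, 2.63 and 3.18 CPM in cre wt contralateral cortex. It was lower in cKO by 1.16 ± 0.35 (SE) on the log2 scale contralaterally (adjusted p = 1) and by 0.84 ± 0.35 ipsilaterally (adjusted p = 0.812), where cKO library 2 overlapped the cre wt libraries; neither passed the quasi-likelihood test of edgeR with p-values adjusted by Benjamini-Hochberg. Cortical identity was present in every library, with the neuronal markers Rbfox3 at 267 to 346 CPM and Slc17a7 at 1434 to 1697 CPM.

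All 13 protein-coding genes and both ribosomal RNAs had at least 10 counts in all 12 libraries and were tested. All 22 transfer RNAs, which are 59 to 75 bases long, were listed at 0 counts and 0 TPM, the length-corrected transcript abundance, in every library. A count of 0 allows up to 3 counts, or 0.377 CPM in the shallowest library and 0.0894 CPM in the deepest, so nothing can be said of the transfer RNAs beyond this limit, which covers counting error only.

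A stretch of mouse chromosome 1 (GRCm38, minus strand, chr1:24611535-24616197, 4663 bases) carries 7 annotated pseudogenes that are nuclear copies of mitochondrial genes. Reads from the genes and the copies cannot be told apart over identical bases, and the deposited counts divide such reads by an estimate. The first 60 bases of mt-Co2, the gene of cytochrome c oxidase subunit 2 (chrM:7013-7072, plus strand), and of its copy Gm28661 (chr1:24615506-24615565, minus strand) show the case in which no base tells the genes apart. These and the next sequences are from the GENCODE M21 transcripts, 5′ to 3′.
mt-Co2: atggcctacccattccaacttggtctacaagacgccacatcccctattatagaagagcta
Gm28661: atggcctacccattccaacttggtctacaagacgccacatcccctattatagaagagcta
The genes mt-Nd3 (chrM:9459-9491) and Gm28438 (chr1:24613087-24613119) show a pair that a single base separates, T3C, counted from the first base of mt-Nd3 and given in capitals.
mt-Nd3: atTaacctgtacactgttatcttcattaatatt
Gm28438: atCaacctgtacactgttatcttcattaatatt
The genes mt-Co1 (chrM:6390-6423) and Gm29216 (chr1:24616155-24616188) also differ by a single base over their shared part, A1066T, counted from the first base of mt-Co1.
mt-Co1: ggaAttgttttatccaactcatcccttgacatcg
Gm29216: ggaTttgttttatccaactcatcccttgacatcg
Over the aligned length, Gm28661 matched mt-Co2 at 681 of 681 bases, Gm28437 matched mt-Co3 at 783 of 783, Gm10925 matched mt-Atp6 at 678 of 678 and Gm10222 matched mt-Nd4l at 294 of 294. Gm28438 matched mt-Nd3 at 344 of 345 bases. Gm29216 matched mt-Co1 at 482 of 483 bases, which cover 31.3% of that gene. The seventh, Gm28439, matched 876 bases of mt-Nd4 exactly, yet was given only 0 to 20 counts in any library. Copies on chromosomes 2 and 13, 95.2% to 97.6% identical to their mitochondrial gene, took at most 112 counts in a library.

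The copies on chromosome 1 held a large part of the counts, and how large differed between libraries. Of the counts of mt-Co2 and Gm28661 together, mt-Co2 was given 11.7 ± 4.11% in cKO ipsilateral and 8.56 ± 0.151% in cKO contralateral cortex, against 10.3 ± 1.44% in cre wt ipsilateral and 5.5 ± 0.538% in cre wt contralateral cortex (mean ± SD, n = 3 each). For mt-Co3 the share was 13.9 ± 10.1% and 7.22 ± 1.41% in cKO ipsilateral and contralateral cortex, with 25.5% in cKO ipsilateral library 3, and 7.57 ± 2.17% and 5.46 ± 1.22% in cre wt ipsilateral and contralateral cortex. The mt-Atp6 share ranged from 8.41% to 13.4% over the 12 libraries, that of mt-Nd3 from 19.1% to 34.7% and that of mt-Nd4l from 26.0% to 70.9%. mt-Co1 kept 88.7% to 94.4% of its pair, but Gm29216 covers only 31.3% of that gene, so this share cannot be compared with the others. A deposited level of mt-Co2, mt-Co3, mt-Atp6, mt-Nd3 or mt-Nd4l is therefore a minor or variable part of the pair's counts. Results of the main edgeR test on these genes are given both as deposited and with the counts of the nuclear copies added to the gene they match. Whether transcripts of the nuclear copies exist in these samples was not tested.

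**Figure D1:**
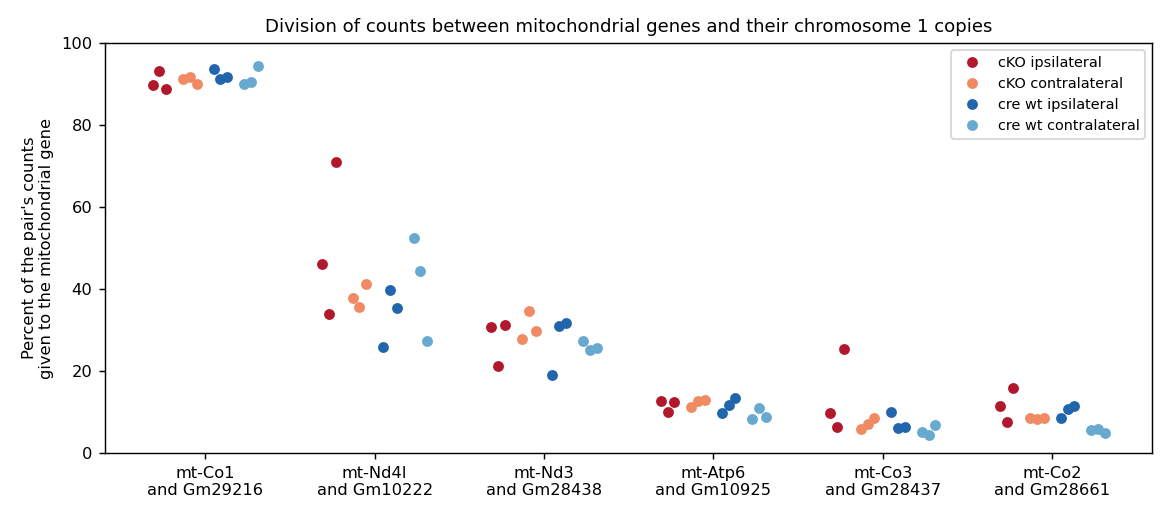
Percent of the counts of each pair given to the mitochondrial gene (y axis) for 6 pairs of mitochondrial gene and chromosome 1 copy (x axis), with 1 point per library, coloured by group. mt-Co1, of which the copy covers only 31.3%, kept 88.7% to 94.4% of its pair. mt-Co2 had 4.88% to 15.9%, with all 3 cre wt contralateral libraries at the bottom, and mt-Nd4l varied most, from 26.0% to 70.9%.

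The mitochondrial genes took a larger share of the counts on the struck side in both genotypes. They held 5.31%, 7.56% and 5.73% of counts in cKO ipsilateral libraries and 4.27%, 4.77% and 4.31% in cKO contralateral libraries. They held 6.91%, 8.16% and 7.95% in cre wt ipsilateral libraries and 4.39%, 4.43% and 5.45% in cre wt contralateral libraries. The ipsilateral and contralateral libraries did not overlap in either genotype, and within ipsilateral cortex the cKO and cre wt ranges overlapped through cKO library 2. The mean difference between sides was 1.75 percentage points in cKO and 2.92 in cre wt. In cKO it was 1.07 without ipsilateral library 2, which was the highest of its group. With the nuclear copies added, the shares were 8.70 ± 1.86% in cKO ipsilateral and 6.49 ± 0.339% in cKO contralateral cortex, and 10.9 ± 0.888% in cre wt ipsilateral and 6.92 ± 0.683% in cre wt contralateral cortex (SD, n = 3 each).

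**Figure D2:**
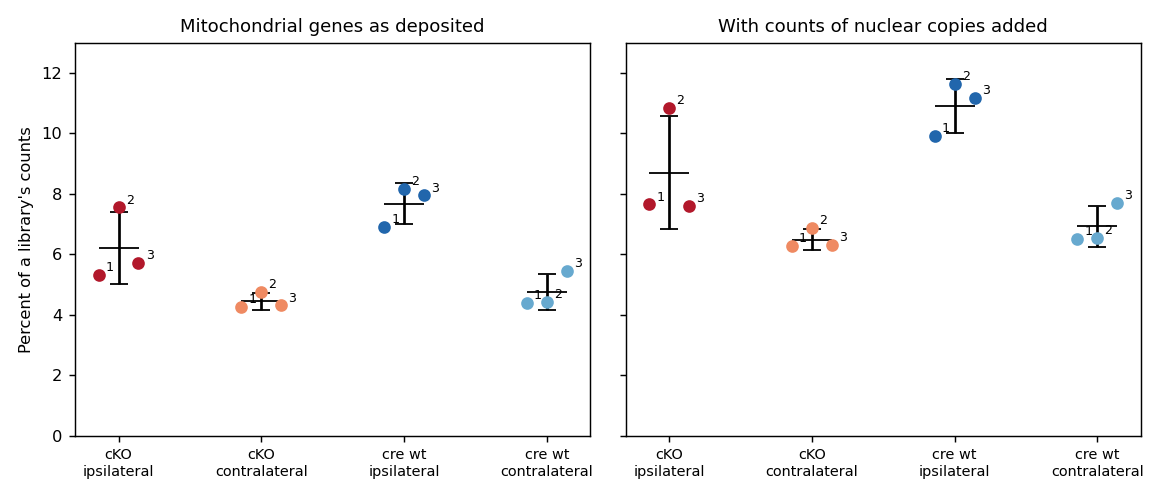
Percent of a library's counts in the 37 mitochondrial genes as deposited (left) and with the nuclear copies added (right), by group; points are libraries with their replicate number, horizontal bars the group mean and whiskers the SD (n = 3). Ipsilateral libraries lie above contralateral ones of the same genotype, from 5.31% upward against at most 4.77% in cKO and from 6.91% upward against at most 5.45% in cre wt for the deposited genes.

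Per unit of length, on the TPM scale with the copies added that cover nearly the whole gene, the messengers of complex IV were the most abundant of the members longer than 500 bases in cre wt contralateral cortex. There mt-Co2 averaged 24734 ± 1946 TPM, mt-Co3 24180 ± 2371 TPM and mt-Co1 21854 ± 3177 TPM (SD, n = 3), differences within their spread. The mt-Co1 value leaves out Gm29216, which covers 31.3% of that gene and has a length correction of its own, so the order of these 3 genes cannot be read from it. The ATP synthase gene mt-Atp6 followed at 18258 ± 3276 TPM, within the spread of mt-Co1. Next came mt-Cytb, the cytochrome b of complex III, at 10473 ± 1335 TPM and mt-Nd1 at 10218 ± 1817 TPM, which overlapped each other and lay below mt-Atp6. Of the other complex I messengers longer than 500 bases, mt-Nd4 averaged 6038 ± 1398 TPM, mt-Nd2 5267 ± 1175 TPM, mt-Nd6 4870 ± 540.1 TPM and mt-Nd5 2855 ± 868.8 TPM. The ribosomal RNAs averaged 4479 ± 982.1 TPM for mt-Rnr1 and 3677 ± 987.1 TPM for mt-Rnr2, and the kit selects polyadenylated RNA, so these are no measure of the mitochondrial ribosome. The short genes mt-Atp8, mt-Nd4l and mt-Nd3, of 204, 297 and 348 bases, averaged 20860 ± 6739, 8787 ± 3707 and 6672 ± 734.3 TPM, and their place in the order rests on the length correction of short transcripts. mt-Co2, mt-Co3 and mt-Co1 stayed the 3 highest genes of more than 500 bases in the other 3 groups by mean TPM.

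In cKO cortex all 15 tested members were higher on the struck side, and 4 passed the test as deposited: mt-Co2, mt-Nd4l, mt-Rnr1 and mt-Cytb (edgeR's quasi-likelihood test, adjusted p below 0.05 over 16966 genes). With the nuclear copies added 3 passed, which were mt-Cytb, mt-Rnr1 and mt-Co1, while mt-Co2 and mt-Nd4l no longer did. Among all genes 2.55% were called higher in this comparison in both fits. The members' median log2 fold change was 0.49 as deposited and 0.46 with the copies added, against -0.01 over all genes tested, and no member was called lower, against 0.177% of all genes. The ipsilateral libraries lay above all contralateral ones for 10 of the 15 members as deposited and for 9 with the copies added. The share of all genes with this separation was not counted, so these numbers do not set the members apart from other genes. At an unadjusted p below 0.05, 13 members were higher as deposited and 14 with the copies added. The share of all genes at that unadjusted threshold was not counted, here or in the later comparisons.

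In cre wt cortex all 15 members were also higher on the struck side, and 11 passed the test, both as deposited and with the copies added. These were mt-Nd1, mt-Nd2, mt-Nd3, mt-Nd4 and mt-Nd5 of complex I, mt-Cytb of complex III, all 3 genes of complex IV, mt-Atp6 of complex V and mt-Rnr1. Among all genes 2.72% were called higher as deposited and 2.7% with the copies added. The median log2 fold change of the members was 0.75 as deposited and 0.73 with the copies added, against -0.01 over all genes. No member was called lower, against 0.183% of all genes. The members mt-Nd4l, mt-Nd6, mt-Atp8 and mt-Rnr2 did not pass, and all 15 had an unadjusted p below 0.05. The ipsilateral libraries lay above all contralateral ones for 14 of the 15, mt-Rnr2 being the exception. The share of all genes with this separation, or with an unadjusted p below 0.05, was not counted.

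The counts of calls depended on single libraries and on the unit. On the authors' TPM values, limma on log2(TPM + 1) called 0 members in cKO and 2 in cre wt, mt-Co2 and mt-Atp6. In cKO the count as deposited was 7 without ipsilateral library 1, 2 without ipsilateral library 2, and 2 without contralateral library 1 or 3, and with the copies added it was 0 without ipsilateral library 2 or contralateral library 1 and 1 without contralateral library 2 or 3. Leaving out cre wt ipsilateral library 2 or 3 or cre wt contralateral library 1 or 2, which enter the shared estimate of spread, gave 2 in cKO with the copies added. In cre wt the deposited count of 11 was 5 without ipsilateral library 2, 6 without ipsilateral library 3, 5 without contralateral library 1 and 4 without contralateral library 2, and with the copies added these were 4, 7, 5 and 3. mt-Co1 and mt-Cytb were called in cre wt in all 12 fits that left out a library, both ways of counting, and mt-Nd3 in all 12 with the copies added. In cKO, mt-Cytb was called in 9 of 12 such fits both ways. With single libraries left out, every member stayed above 0 in cre wt both ways of counting and in cKO as deposited. In cKO with the copies added, the log2 fold change without ipsilateral library 2 was -0.04 for mt-Co3, against 0.25 with it, so the sign of mt-Co3 rested on that library. Without the same library it was 0.07 for mt-Atp6, 0.11 for mt-Nd1 and 0.31 for mt-Co1, and the other 14 members stayed above 0 in every such fit. In an alternative chosen after seeing the data, cKO ipsilateral library 3, the shallowest library, and cre wt contralateral library 3 were both left out. Every member's difference was then above 0 in both genotypes, and 7 members were called in cKO and 15 in cre wt as deposited. The second of these libraries had the largest mitochondrial share on the contralateral side, so leaving it out by itself widens the cre wt difference. The 15 calls in cre wt are therefore no support for the rise. The share of all genes called was not counted in this or the other fits that left out libraries.

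**Figure D3:**
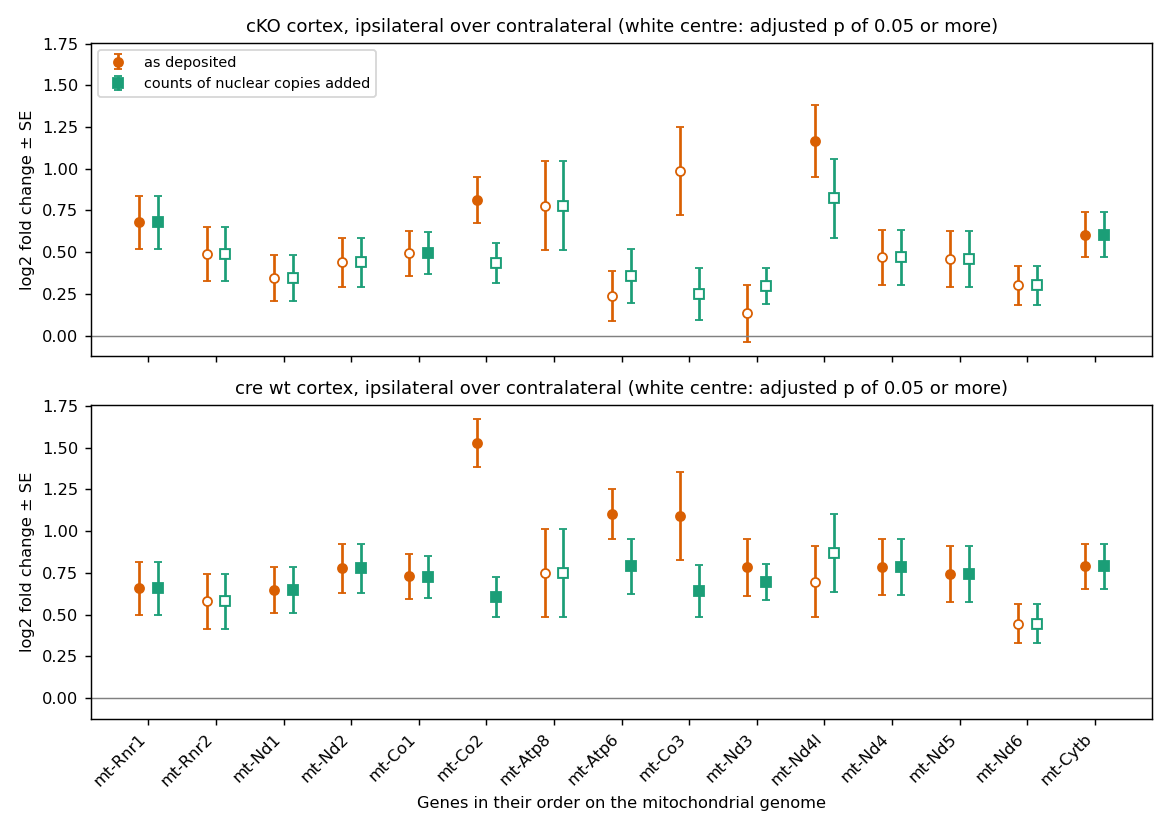
Log2 fold change of ipsilateral over contralateral cortex (y axis, points with SE) for the 15 tested members in genome order (x axis), in cKO (top) and cre wt (bottom), as deposited (circles) and with nuclear copies added (squares); a white centre marks an adjusted p of 0.05 or more. All points lie above 0; the deposited values of mt-Co2, mt-Atp6 and mt-Co3 in cre wt, from 1.09 to 1.53, come down to 0.61 to 0.79 once the copies are added.

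Complex IV, cytochrome c oxidase, is where electrons pass to oxygen, and mt-Co1 encodes its catalytic subunit. mt-Co1 is the most counted member, and its values with the copies added were 22252, 32523 and 23313 CPM in cKO ipsilateral and 17822, 19806 and 17760 CPM in cKO contralateral libraries. In cre wt they were 28470, 36004 and 35515 CPM in ipsilateral and 18914, 19241 and 22252 CPM in contralateral libraries. The sides did not overlap in either genotype, and cKO ipsilateral library 2 stood with the cre wt ipsilateral libraries. The log2 fold change was 0.50 ± 0.12 in cKO (adjusted p = 0.0469) and 0.73 ± 0.12 in cre wt (adjusted p = 0.0034); as deposited it was 0.49 ± 0.14 in cKO (adjusted p = 0.0757) and 0.73 ± 0.14 in cre wt (adjusted p = 0.00645).

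For mt-Co2, which carries the copper centre that receives electrons from cytochrome c, the deposited values were 883, 819 and 1122 CPM in cKO ipsilateral and 528, 541 and 538 CPM in cKO contralateral libraries. In cre wt they were 814, 1256 and 1250 CPM in ipsilateral and 392, 399 and 360.5 CPM in contralateral libraries. The log2 fold change was 0.81 ± 0.14 in cKO (adjusted p = 0.00314) and 1.53 ± 0.14 in cre wt (adjusted p = 7.46e-06), the largest of any member there. With the copies added the levels were 7580, 10715 and 7072 CPM in cKO ipsilateral and 6177, 6426 and 6175 CPM in cKO contralateral libraries, and 9351, 11723 and 10865 CPM in cre wt ipsilateral and 6774, 6837 and 7387 CPM in cre wt contralateral libraries. The sides still did not overlap, but the log2 fold change was 0.43 ± 0.12 in cKO (adjusted p = 0.0800) and 0.61 ± 0.12 in cre wt (adjusted p = 0.0107), smaller than that of mt-Co1. The share of the pair's counts given to mt-Co2 was higher in all 3 cre wt ipsilateral libraries than in all 3 cre wt contralateral ones, and the sides overlapped in cKO; this share was not tested. The copy Gm28661 itself had a log2 fold change of 0.39 ± 0.14 in cKO (adjusted p = 0.190) and 0.53 ± 0.14 in cre wt (adjusted p = 0.0515).

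The third subunit of complex IV, mt-Co3, does not itself carry a redox centre. As deposited its log2 fold change was 0.99 ± 0.26 in cKO (adjusted p = 0.0656) and 1.09 ± 0.26 in cre wt (adjusted p = 0.0371). With the copies added it had 9180, 13662 and 7107 CPM in cKO ipsilateral and 8289, 8719 and 8175 CPM in cKO contralateral libraries, and cKO ipsilateral library 3 then lay below all contralateral ones. In cre wt the same measure gave 12579, 13722 and 13255 CPM in ipsilateral and 8087, 8113 and 9144 CPM in contralateral libraries, with no overlap. The log2 fold change was then 0.25 ± 0.16 in cKO (adjusted p = 0.498) and 0.64 ± 0.16 in cre wt (adjusted p = 0.0370).

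Cytochrome b, encoded by mt-Cytb, is the only mitochondrially encoded subunit of complex III, and no copy of it with at least 95% identity was found among the annotated transcripts. It had 6859, 10256 and 7738 CPM in cKO ipsilateral and 5244, 6017 and 5095 CPM in cKO contralateral libraries. In cre wt it had 8840, 11746 and 11172 CPM in ipsilateral and 5801, 5712 and 6860 CPM in contralateral libraries. The sides did not overlap in either genotype. It was 1.52-fold higher in cKO (log2 0.60 ± 0.13, adjusted p = 0.0216) and 1.73-fold higher in cre wt (log2 0.79 ± 0.13, adjusted p = 0.00322), all 3 ipsilateral libraries lying above all contralateral ones each time.

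The 7 complex I messengers encode membrane subunits of the NADH dehydrogenase that starts the chain. With the copies added, their log2 fold changes ran from 0.29 for mt-Nd3 to 0.82 for mt-Nd4l in cKO and from 0.45 for mt-Nd6 to 0.87 for mt-Nd4l in cre wt. None of the 7 passed in cKO with the copies added, where the adjusted p-values lay between 0.0925 for mt-Nd4l and 0.265 for mt-Nd1, and 5 passed in cre wt. For mt-Nd1, which has no such copy, the log2 fold change was 0.35 ± 0.14 in cKO (adjusted p = 0.265) and 0.65 ± 0.14 in cre wt (adjusted p = 0.0162). For mt-Nd2 it was 0.44 ± 0.15 in cKO (adjusted p = 0.170) and 0.78 ± 0.15 in cre wt (adjusted p = 0.00723). The subunits mt-Nd4 and mt-Nd5, which form part of the proton-pumping arm, had log2 fold changes of 0.47 ± 0.17 and 0.46 ± 0.17 in cKO, which did not pass, and of 0.79 ± 0.17 (adjusted p = 0.0163) and 0.74 ± 0.17 (adjusted p = 0.0254) in cre wt.

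Within complex I, the short genes mt-Nd4l and mt-Nd3 were those that moved most when the copies were added. For mt-Nd4l the deposited values were 188, 256 and 386 CPM in cKO ipsilateral and 101, 129 and 138 CPM in cKO contralateral libraries, against 173, 277 and 223 CPM in cre wt ipsilateral and 146, 122 and 146 CPM in cre wt contralateral libraries. It passed in cKO as deposited (log2 1.17 ± 0.21, adjusted p = 0.00558), and with the copies added it did not (log2 0.82 ± 0.24, adjusted p = 0.0925). The high deposited value of 386 CPM was that of cKO ipsilateral library 3, in which mt-Nd4l was given 70.9% of its pair. For mt-Nd3 the log2 fold change was 0.13 ± 0.17 in cKO (adjusted p = 0.776) and 0.78 ± 0.17 in cre wt (adjusted p = 0.0202) as deposited. With the copies added it was 0.29 ± 0.11 in cKO (adjusted p = 0.218) and 0.70 ± 0.11 in cre wt (adjusted p = 0.00151), the smallest adjusted p of any member in cre wt on that count.

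mt-Nd6 is the only messenger transcribed from the light strand, so that it comes from a precursor other than that of all remaining messengers. It had 789, 1177 and 895 CPM in cKO ipsilateral and 733, 832 and 758 CPM in cKO contralateral libraries. It had 1241, 1167 and 1124 CPM in cre wt ipsilateral and 842, 795 and 957 CPM in cre wt contralateral libraries. The log2 fold change was 0.30 ± 0.12 in cKO (adjusted p = 0.249) and 0.45 ± 0.12 in cre wt (adjusted p = 0.0547), the smallest of the 15 members in cre wt. Whether it differs from that of the other members was not tested, and it passed in cre wt under the DESeq2 test (adjusted p = 0.0115) and under limma-voom (adjusted p = 0.0414).

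ATP synthase uses the proton gradient to make ATP, and mt-Atp6 and mt-Atp8 encode subunits of its membrane part. As deposited mt-Atp6 had a log2 fold change of 0.24 ± 0.15 in cKO (adjusted p = 0.508) and 1.10 ± 0.15 in cre wt (adjusted p = 0.00039). With the copies added it had 5714, 8806 and 4783 CPM in cKO ipsilateral and 4844, 5322 and 4927 CPM in cKO contralateral libraries, and 8688, 9111 and 8781 CPM in cre wt ipsilateral and 4744, 4572 and 6070 CPM in cre wt contralateral libraries. The cKO sides overlapped through ipsilateral library 3 and the cre wt sides did not. The log2 fold change was then 0.36 ± 0.16 in cKO (adjusted p = 0.336) and 0.79 ± 0.16 in cre wt (adjusted p = 0.0137). mt-Atp8, the shortest messenger, varied widely in cKO ipsilateral cortex, with 138, 348 and 220 CPM in cKO ipsilateral and 135, 143 and 135 CPM in cKO contralateral libraries, and it passed in neither genotype (adjusted p = 0.184 in cKO and 0.182 in cre wt). The annotated genes mt-Atp8 and mt-Atp6 overlap over chrM:7927-7969, so reads there match both.

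Of the ribosomal RNAs, mt-Rnr1, the small-subunit RNA, had 2403, 3560 and 3097 CPM in cKO ipsilateral and 1833, 1765 and 2066 CPM in cKO contralateral libraries. It had 2615, 3273 and 3870 CPM in cre wt ipsilateral and 1798, 1869 and 2524 CPM in cre wt contralateral libraries. The sides did not overlap, and the log2 fold change was 0.68 ± 0.16 in cKO (adjusted p = 0.0296) and 0.66 ± 0.16 in cre wt (adjusted p = 0.0359). The large-subunit RNA mt-Rnr2 had log2 fold changes of 0.49 ± 0.16 in cKO (adjusted p = 0.174) and 0.58 ± 0.16 in cre wt (adjusted p = 0.0818), and its sides overlapped in cre wt.

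Summed by complex with the copies added, the ratio of ipsilateral to contralateral mean CPM in cKO was 1.34 for complex I, 1.52 for complex III, 1.34 for complex IV, 1.29 for complex V and 1.48 for the ribosomal RNAs. In cre wt the ratios were 1.65, 1.73, 1.61, 1.73 and 1.53 for the same classes in that order. Complex IV made up 51.0 ± 1.22% in cKO ipsilateral, 51.7 ± 0.389% in cKO contralateral, 50.9 ± 0.814% in cre wt ipsilateral and 52.0 ± 2.41% of the mitochondrial counts in cre wt contralateral cortex (SD, n = 3 each), so that the sides differed by less than the SD of a group. Complex I made up 23.7 ± 0.462%, 24.1 ± 0.419%, 24.3 ± 1.16% and 23.9 ± 1.63% in the same order of groups, again within the larger SD. Complex III made up 9.54 ± 0.629% in cKO ipsilateral and 8.51 ± 0.360% in cKO contralateral cortex, and 9.41 ± 0.566% in cre wt ipsilateral and 8.92 ± 0.209% in cre wt contralateral cortex. Its cKO sides differed by more than either SD, and its cre wt sides by less than the larger SD. In the same order of groups, complex V made up 7.56 ± 0.814%, 8.08 ± 0.0338%, 8.18 ± 0.667% and 7.67 ± 0.298%. The ribosomal RNAs made up 8.28 ± 0.916%, 7.59 ± 0.724%, 7.14 ± 0.797% and 7.59 ± 0.706%. These shares were not tested. Adding the copies also narrowed the spread between members: the SD of their log2 fold changes was 0.17 in cKO and 0.11 in cre wt with the copies added, against 0.28 in cKO and 0.26 in cre wt as deposited.

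**Figure D4:**
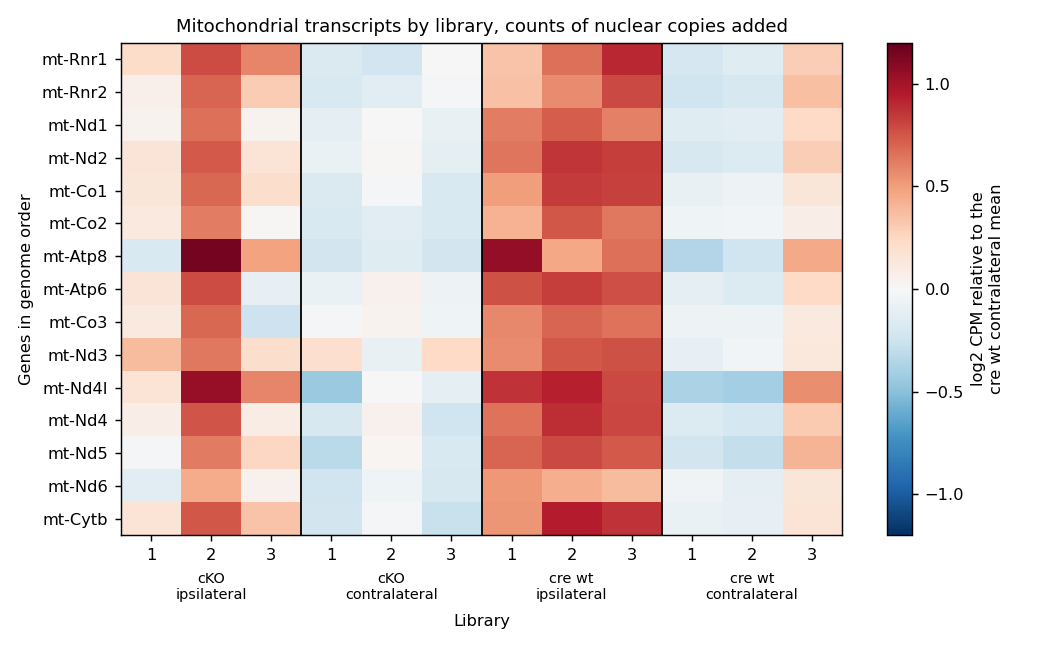
Log2 CPM of each tested member (rows, genome order) in each library (columns, grouped), with nuclear copies added, relative to the mean of the 3 cre wt contralateral libraries; red is higher and blue lower. cKO ipsilateral library 2 is red for all 15 members, as are the 3 cre wt ipsilateral libraries, and for most members cKO ipsilateral libraries 1 and 3 lie nearer to the contralateral ones.

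Between genotypes no member passed the test on either side, nor did any other gene (0% called in both directions). In ipsilateral cortex with the copies added all 15 members were below 0 in cKO relative to cre wt, with a median log2 fold change of -0.35, against 0.00 over all genes, and 11 had an unadjusted p below 0.05, although the smallest adjusted p by edgeR's quasi-likelihood test was 0.752. As deposited 13 members were below 0 and 8 had an unadjusted p below 0.05. mt-Nd5 was the only member whose libraries did not overlap, with 2907, 4502 and 3469 CPM in cKO ipsilateral and 4748, 5067 and 4889 CPM in cre wt ipsilateral libraries (log2 -0.43 ± 0.17, adjusted p = 0.752). How many of all genes separate in this way, or reach that unadjusted p, was not counted. Neither number therefore sets mt-Nd5 or the members apart from other genes. DESeq2 and limma-voom called 0 members, whereas the quasi-likelihood test without a filter on low counts called 9 lower as deposited. The share of all genes called without the filter was not counted. The 15 members share libraries and precursors, so their common sign is not 15 separate observations, and the other 14 members overlapped between genotypes.

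In contralateral cortex the sign of several members depended on the division of reads. As deposited mt-Co2, mt-Atp6 and mt-Co3 had log2 fold changes of 0.48 ± 0.14, 0.38 ± 0.15 and 0.38 ± 0.26 in cKO relative to cre wt, and with the copies added these were -0.16 ± 0.12, -0.03 ± 0.16 and -0.01 ± 0.15. The unadjusted p was below 0.05 for 2 members as deposited and for 0 with the copies added, and the adjusted p of each was 1. DESeq2 and limma-voom also called 0 members. The test without a filter called 4 higher as deposited, and the share of all genes called by it was not counted. The median over the members with the copies added was -0.13, and that difference in the mitochondrial share, -0.310 percentage points as deposited, was 0.0367 without cre wt contralateral library 3.

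The difference of the injury responses, cKO minus cre wt, was below 0 for 13 of 15 members with the copies added, with a median of -0.23 on the log2 scale, and 0 members and 0% of all genes passed the test. An unadjusted p below 0.05 was found for 1 member, mt-Nd3 (-0.40 ± 0.15), and for 3 as deposited. DESeq2 and limma-voom called 0 members. The test without a filter called 1 higher and 3 lower as deposited, and its share of all genes called was not counted. The 11 calls in cre wt against 3 or 4 in cKO are thus not shown to be a difference between genotypes.

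Listed nuclear genes for the remaining subunits of the same complexes, and for complex II, gave no call. The list was chosen, does not hold every subunit or isoform, and counts Atpif1, an inhibitor of ATP synthase, with complex V. Of the 76 listed genes tested, 0 were called in either genotype or in any other comparison by edgeR's quasi-likelihood test. An unadjusted p below 0.05 in that test was found for 2 higher and 4 lower in cKO and for 2 higher and 4 lower in cre wt. Their median log2 fold change was 0.07 in cKO and -0.05 in cre wt, with extremes of -0.19 and 0.39 in cKO and of -0.23 and 0.32 in cre wt. Among those of highest level, Atp5b of ATP synthase had -0.12 ± 0.07 in both genotypes and Cox4i1 of complex IV had 0.09 ± 0.10 in cKO and 0.05 ± 0.10 in cre wt. Complex II, which has no mitochondrially encoded subunit, had Sdha at -0.03 ± 0.05 in cKO and -0.08 ± 0.05 in cre wt. The difference between both kinds of subunit was not tested.

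**Figure D5:**
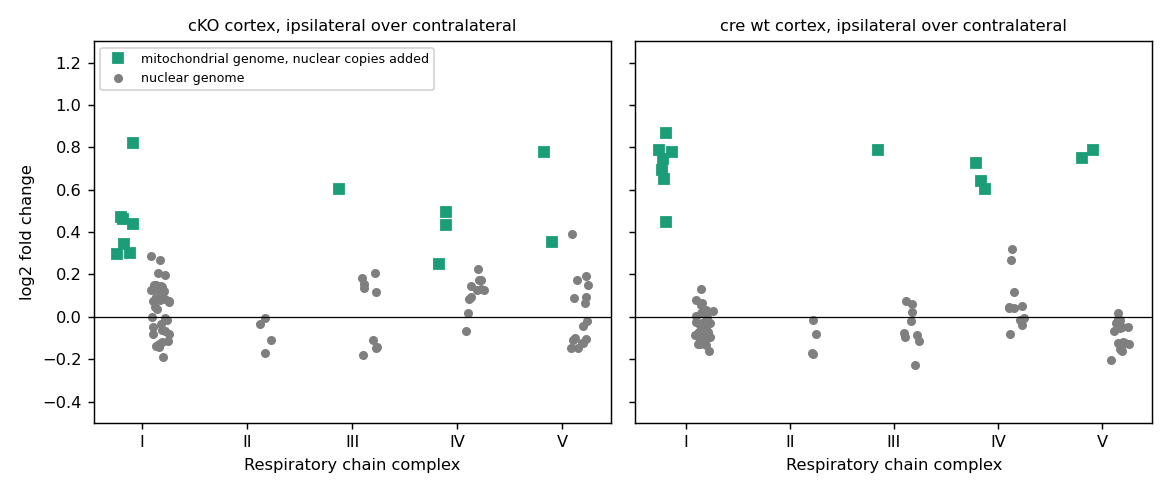
Log2 fold change of ipsilateral over contralateral cortex (y axis) for subunit genes of respiratory chain complexes I to V (x axis), in cKO (left) and cre wt (right). Squares are mitochondrially encoded genes with nuclear copies added, and circles are the listed nuclear-encoded genes, Atpif1 included. The mitochondrial genes lie between 0.25 and 0.82 in cKO and between 0.45 and 0.87 in cre wt, and the nuclear ones between -0.19 and 0.39 in cKO and between -0.23 and 0.32 in cre wt.

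The nuclear factors that transcribe, process and translate mitochondrial RNA gave no call either. None of 17 transcription and replication genes, 23 RNA processing and stability genes, 8 biogenesis regulators and 78 mitochondrial ribosomal protein genes passed in either injury comparison, with list medians from -0.08 to -0.04 on the log2 scale in cKO and from -0.11 to 0.05 in cre wt. Tfam, which packages mitochondrial DNA and starts its transcription, had -0.06 ± 0.08 in cKO and -0.11 ± 0.08 in cre wt. Grsf1, a protein of mitochondrial RNA granules, had -0.13 ± 0.06 in cKO and -0.11 ± 0.06 in cre wt. Yy1 of the biogenesis regulators had -0.02 ± 0.08 in cKO and 0.06 ± 0.08 in cre wt, and Mrpl48 had -0.14 ± 0.08 in cKO and -0.03 ± 0.08 in cre wt.

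Transcripts of blood cells moved with side in the same libraries. The 4 hemoglobin genes summed to 760, 920 and 594 CPM in cKO ipsilateral and 4.58, 8.31 and 80.7 CPM in cKO contralateral libraries, and to 588, 2077 and 1459 CPM in cre wt ipsilateral and 239, 59.97 and 1.98 CPM in cre wt contralateral libraries. Of the erythroid markers 5 of 7 tested rose in cKO and 3 of 7 in cre wt, among them Alas2, which starts heme synthesis (log2 4.81 ± 0.77 in cKO and 3.57 ± 0.59 in cre wt). Neutrophil markers rose in 9 of 10 tested in cKO and 8 of 10 in cre wt, with list sums of 28.9 to 75.8 CPM in cKO ipsilateral against 7.53 to 13.1 CPM in cKO contralateral cortex, and 18.9 to 43.7 CPM in cre wt ipsilateral against 6.85 to 7.12 CPM in cre wt contralateral cortex. Platelet markers rose in 3 of 10 tested in cKO and 5 of 10 in cre wt, with sums of 10.2 to 13.97 CPM in cKO ipsilateral against 5.03 to 6.19 CPM in cKO contralateral cortex, and 10.8 to 18.8 CPM in cre wt ipsilateral against 4.42 to 6.49 CPM in cre wt contralateral cortex. None of the genes of these 3 lists was at 0 in all libraries, and the part that any of these cells had in the mitochondrial levels was not tested.

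Markers of resident cells moved less, though some list sums separated by side. The neuron sum was 11803 to 12629 CPM in cKO ipsilateral against 13136 to 13857 CPM in cKO contralateral cortex. The astrocyte sum was 5172 to 5597 against 4428 to 4822 CPM in cKO and 5415 to 5815 against 4402 to 5206 CPM in cre wt. The endothelial and mural sum was 357 to 389 against 296 to 347 CPM in cKO. The other sums of resident cells overlapped between sides. Of 12 neuronal markers 2 fell in cKO, Tubb3 (log2 -0.42 ± 0.08) and Snap25 (log2 -0.27 ± 0.06), and 1 fell in cre wt, Tubb3 (log2 -0.34 ± 0.08). Of 10 astrocyte markers Sox9 rose in both genotypes (log2 0.77 ± 0.14 in cKO and 0.87 ± 0.14 in cre wt) and S100b rose in cre wt (log2 0.31 ± 0.07), with 0.19 ± 0.07 in cKO (adjusted p = 0.239). Of 10 microglia markers Tmem119 fell in both (log2 -0.69 ± 0.13 in cKO and -0.70 ± 0.13 in cre wt). Of 10 endothelial and mural markers Flt1 rose in both, and of 8 oligodendrocyte markers 0 were called in either. In bulk tissue, more cells of a type and more RNA per cell cannot be told apart. Neat1 was the only called gene of 9 nuclear-retained noncoding RNAs, higher in both genotypes (log2 0.91 ± 0.16 in cKO and 0.92 ± 0.16 in cre wt). The abundant short neuronal RNA Bc1, among 10 tested RNAs without a regular poly(A) tail of which 0 were called in either genotype, had 92.6 CPM in cKO ipsilateral library 3 and 175 to 498 CPM in the other 11 libraries. Its part in the mitochondrial shares was not tested.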

How the data were processed

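RNA of the 12 cortex libraries was prepared with Trizol and a Qiagen column kit and sequenced from a stranded mRNA kit, per the labels' protocols. Per the submitters' processing notes, Trim Galore 0.6.4, STAR 2.7.1a, RSEM 1.2.28 and DESeq2 1.36.0 were used on mm10. The authors deposited estimated counts as whole numbers and, beside them, TPM values per gene; the annotation behind the counts is not given in the sources used here. RSEM divides reads that fit several genes, which bears directly on mitochondrial genes with nuclear copies.

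Gene identifiers were matched to GENCODE M21 (GRCm38), which named 55227 of 55487 genes (99.5%). Nuclear copies were annotated transcripts outside the mitochondrial genome that matched a member over at least 100 bases at 95% identity or more (blastn 2.17.0); their counts were added to the member in the second version of each result.

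Genes with at least 10 counts in at least 3 libraries were tested (16966), which kept at least 99.9% of counts. Library sizes were scaled with TMM, and all 4 groups were fitted together with edgeR 4.0.16 (R 4.3.3) by the quasi-likelihood test, with Benjamini-Hochberg adjustment over all genes and a threshold of 0.05; the standard error is the log2 fold change over the root of F. CPM used the scaled library sizes. DESeq2 1.42.0, limma 3.58.1, other scalings and filters, libraries left out and a replicate block were the alternatives. Sums over members were not tested. The test was checked on simulated data with 2-fold changes in 200 genes per comparison. It recovered 86% to 86.5% of them and called 6 to 12 unchanged genes. Smaller changes, and changes shared by related genes, were not simulated.

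The members, gene lists and tests were chosen with earlier results of these data known. Every member is accounted for, up to 4 called genes of smallest adjusted p were considered per other list, and up to 2 of highest mean CPM where none was called; not all of these are printed.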

Additional observations from a re-analysis of the deposited data

How the results depend on the processing

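The counts of members called kept within 1.5 times under DESeq2 size factors, library totals, scaling on other genes, filterByExpr, a strict filter, the DESeq2 test, limma-voom and fits of the compared groups only. They moved on the TPM scale as deposited, where limma called 2 members in cre wt with a pseudocount of 1 or 0.5 and 1 without a filter, and 0 in cKO under all 3 settings. The TPM fits were not run with the copies added. Without a filter on low counts the quasi-likelihood test called 14 members higher in cKO, 9 lower between genotypes ipsilaterally, 4 higher contralaterally, and 1 higher and 3 lower for the difference of responses. These calls are on the deposited counts. The share of all genes called without the filter was not counted, so they do not set the members apart from other genes. The standard error of mt-Co3 in cKO was then 0.0752 in place of 0.263, and the cause was not tested. With the replicate block 7 members were called in cKO and 14 in cre wt, and the cre wt number was the same with and without the copies. The cKO number with the copies added is not given here, and the share of all genes called with the block was not counted. The labels leave unsaid whether equal numbers on both sides mark 1 animal, and the correlations of same-numbered libraries, with group means subtracted, were positive but low (0.0746, 0.0844 and 0.0556 in cKO, 0.00581, 0.0959 and 0.0506 in cre wt), so the numbers were not taken as pairs; as a hint from the data, 5 of the 6 ipsilateral libraries correlated best with the contralateral library of their own number. Leaving out single libraries, copies added or not, gave 0 to 7 calls in cKO and 3 to 15 in cre wt. Without cKO ipsilateral library 3 and cre wt contralateral library 3 together, an alternative chosen after seeing the data, 7 were called in cKO. The share of all genes called in these fits was not counted. The difference between sides in mitochondrial share in cre wt, 2.92 percentage points, was 4.40 as a share of TPM and 3.98 with the nuclear copies. These points stand on unlike bases and do not rank the size of the rise. The cre wt ipsilateral and contralateral means were 7.68% and 4.76% of counts, 14.4% and 9.99% of TPM, and 10.9% and 6.92% of counts with the copies. With single libraries left out, the difference between sides in share of counts ran from 1.07 to 2.20 in cKO and from 2.67 to 3.30 in cre wt. The genotype difference ran from -2.15 to -1.03 ipsilaterally and from -0.494 to 0.0367 contralaterally, the last being the only reversed sign among these share differences. The transfer RNAs were listed at 0 in every library, the deepest included, and the reason was not tested. Depth was lowest in cKO ipsilateral library 3, where every tested member still had at least 10 counts.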
